A study of Mus musculus with 15 samples.

Results

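Inhibitor of DNA binding (Id) proteins and the E proteins they bind were followed in cultured spleen cells of leukemic mice. The genes are Id1, Id2 and Id3 on the side of the inhibitors and Tcf3, Tcf4 and Tcf12 on the side of the E proteins. They were picked by gene symbol, and all 6 members of 6 were present in both deposited tables, which together list 17029 genes. The choice was made with earlier results on these same libraries in view, so the levels below are a description, and no p-value of a member supports a difference. Eμ-TCL1 mice carry a TCL1 transgene driven in B-cells by the immunoglobulin heavy chain enhancer and develop a disease modelled on chronic lymphocytic leukemia. Eμ-TCL1;p53R172H/+ mice carry the same transgene and, in addition, 1 mutant R172H copy of Trp53. Spleens with leukemia were disrupted mechanically, and the methods describe no sorting of the cells. The cells were cultured for 24 h with DMSO, the vehicle, or with 5 μM ibrutinib, an inhibitor of Bruton's tyrosine kinase (Btk), which relays signals of the B-cell receptor. RNA sequencing gave 3 Eμ-TCL1 and 5 Eμ-TCL1;p53R172H/+ libraries in DMSO, and 3 and 4 libraries in ibrutinib. The labels give C57Bl/6 as the background of every group, and the age of the mice at harvest is not given in the sources used here.

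E proteins are basic helix-loop-helix transcription factors that pair with each other and bind short DNA motifs called E-boxes, of the form CANNTG. Id proteins have the helix-loop-helix part but lack the basic region that touches DNA, so an E protein bound to an Id protein does not bind its motif. In lymphocytes, Tcf3 (which encodes E2A), Tcf4 (E2-2) and Tcf12 (HEB) act in the commitment of B-cells and T-cells, and Id2 and Id3 hold them in check in natural killer cells, innate lymphoid cells and maturing lymphocytes. Tcf4 is not Tcf7l2, which is also often called TCF4.

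The genes lie apart in the mouse genome (GRCm38). Id1 (ENSMUSG00000042745) is at chr2:152736251-152737410, Id2 (ENSMUSG00000020644) at chr12:25093799-25097140 and Id3 (ENSMUSG00000007872) at chr4:136143497-136145755. Tcf3 (ENSMUSG00000020167) is at chr10:80409514-80433647 and Tcf12 (ENSMUSG00000032228) at chr9:71842688-72111871. Stretches of sequence before a start of transcription are shown for 1 Id gene and 2 E protein genes, since the E-box is the motif through which these proteins act. They come from the RefSeq promoter table (GRCm38.p6), whose windows run from 250 bases before to 50 bases after a start, and the part that overlaps an annotated exon was left out. Capitals mark the E-box, searched as CANNTG, which reads the same way on both strands. The stretches are, 5′ to 3′, Id2 at chr12:25096254-25096342 (minus strand, inside the span of the gene), Tcf12 at chr9:72111872-72112069 (minus strand, upstream of the gene) and Tcf3 at chr10:80433648-80433885 (minus strand, upstream of the gene).
Id2: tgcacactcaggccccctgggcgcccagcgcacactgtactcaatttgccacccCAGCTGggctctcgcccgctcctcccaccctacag
Tcf12: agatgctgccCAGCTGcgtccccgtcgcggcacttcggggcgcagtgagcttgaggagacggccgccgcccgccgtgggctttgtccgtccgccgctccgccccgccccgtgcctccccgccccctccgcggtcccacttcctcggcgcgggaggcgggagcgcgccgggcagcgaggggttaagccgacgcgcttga
Tcf3: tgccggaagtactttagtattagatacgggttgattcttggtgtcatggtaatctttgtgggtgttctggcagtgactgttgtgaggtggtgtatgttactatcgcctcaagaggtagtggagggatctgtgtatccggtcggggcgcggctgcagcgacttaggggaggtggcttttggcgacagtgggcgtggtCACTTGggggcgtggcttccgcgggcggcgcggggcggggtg
The Id2 and Tcf12 stretches hold the E-box CAGCTG, and Tcf3 holds CACTTG. The table has 3 windows for Tcf12, of which the one farthest upstream is shown, and the other two hold CAAGTG with CACTTG, and CATGTG. Of 32851 promoter windows of this length in the table, 72.3% hold a CANNTG and 16.3% a CAGCTG, and the window of Id3 holds no CANNTG.

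The libraries differed in the cells that they held, and the members differed with them. Summed levels of 10 B-cell markers ran from 70.2 to 6536.2 over the 15 libraries, in the deposited unit, gene counts divided by a library size that edgeR adjusts (normalized CPM). In 3 libraries, Eμ-TCL1;p53R172H/+ replicates 1 and 2 in DMSO and replicate 1 in ibrutinib, T-cell markers summed to between 2335.9 and 4284.7 and B-cell markers to at most 290.4. In 2 libraries, Eμ-TCL1 replicate 2 in DMSO and replicate 1 in ibrutinib, myeloid markers summed to between 20689.5 and 29175.9 and erythroid markers to between 14977.4 and 17255. The other 10 libraries had at most 1502.5 for T-cell, 1198.9 for myeloid and 256.2 for erythroid markers. Among these 10, Eμ-TCL1;p53R172H/+ replicate 3 in ibrutinib was the most mixed, with B-cell markers at 609.1 and T-cell markers at 1502.5. In this library Xist was at 1 and the Y-linked gene Ddx3y at 82.1, while the DMSO library of the same number had Xist at 1491.3 and Ddx3y at 0.1. The values below are therefore given over all libraries and over the 10. In such bulk RNA, fewer cells of a type and less RNA per cell cannot be told apart.

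**Figure D1:**
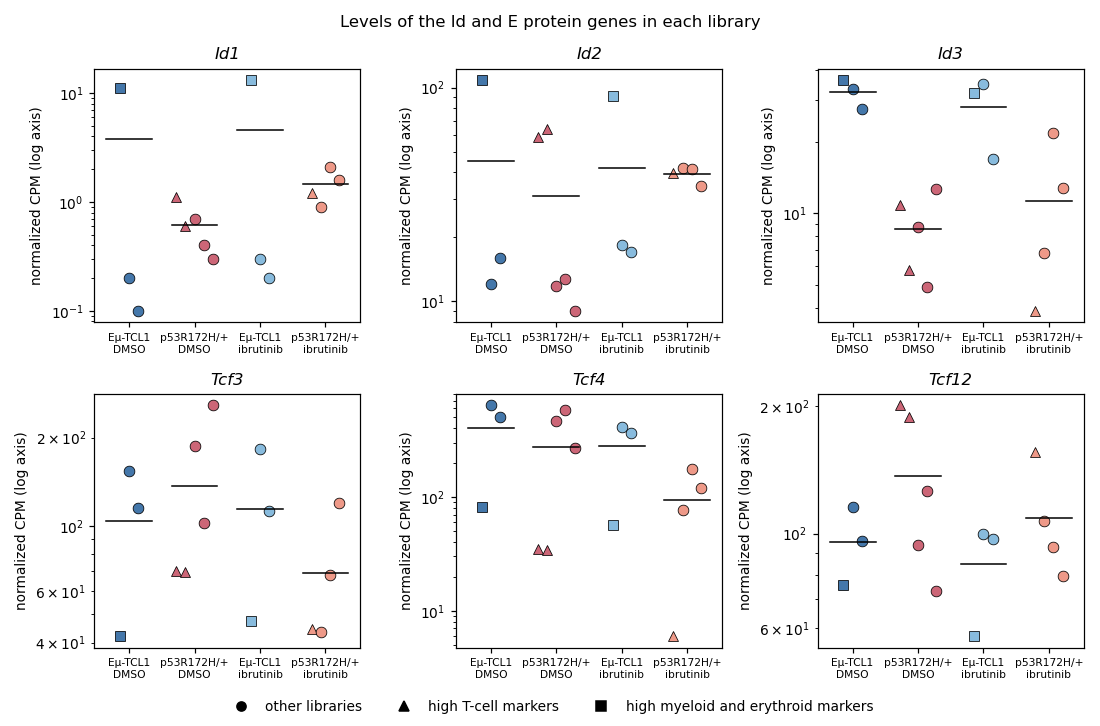
Deposited level of each gene (normalized CPM, log axis) in each of the 15 libraries, by genotype and treatment. Lines are group means, triangles the 3 libraries with high T-cell markers and squares the 2 with high myeloid and erythroid markers. Id3 in DMSO was the member whose genotypes did not overlap, at 27.5 to 36.2 against 4.9 to 12.7.

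Among the Id genes, Id3 was the one that separated the genotypes in DMSO. Id3 is a target of antigen receptor signals in lymphocytes. Its level was 36.2, 33.1 and 27.5 in Eμ-TCL1 replicates 2, 3 and 4. It was 10.8, 5.8, 8.8, 4.9 and 12.7 in Eμ-TCL1;p53R172H/+ replicates 1 to 5. All 5 libraries with mutant p53 were thus below all 3 Eμ-TCL1 libraries, with means of 8.6 ± 3.29 (SD, n = 5) and 32.3 ± 4.41 (SD, n = 3). On the scale of log2(value + 1), the difference was -1.86 ± 0.34 (SE), a 3.62-fold lower level with mutant p53. With mutant p53, Id3 was 5.8 and 10.8 in the pair with high T-cell markers and 4.9 to 12.7 in the other 3 libraries. In Eμ-TCL1 it was 36.2 in the library with high myeloid and erythroid markers and 27.5 and 33.1 in the others. Without the libraries that stand apart the difference in DMSO was -1.75 ± 0.41 (SE).

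Id3 was the only member of 6 whose genotypes did not overlap in DMSO, against 6.45% of all 16470 genes in either direction and 2.93% lower with mutant p53, and this contrast was in view when the genes were chosen. In limma's fit over all genes, 0 of 6 members passed a Benjamini-Hochberg adjusted p of 0.05 in DMSO, where 0.0121% of genes passed. These were 2 immunoglobulin variable segments, Igkv12-89 and Ighv1-55, named after their values were seen. Id3 had an adjusted p of 0.226 in limma, and its range over the alternatives was 0.0141 to 0.760. It was also the only member with an unadjusted p under 0.05, which 8.17% of genes reached. All 3 Eμ-TCL1 libraries in DMSO had high Xist, and only 2 of the 5 libraries with mutant p53 did. In those 2, Id3 was at 8.8 and 12.7, and the part of sex in the difference was not tested.

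With ibrutinib, Id3 was 32, 34.8 and 16.9 in Eμ-TCL1 replicates 1, 3 and 4. It was 3.9, 6.8, 21.7 and 12.8 in Eμ-TCL1;p53R172H/+ replicates 1, 3, 4 and 5. The genotypes overlapped, since replicate 4 with mutant p53 was above Eμ-TCL1 replicate 4. The difference was -1.40 ± 0.54 (SE) on the log2(value + 1) scale, and -0.91 ± 0.54 (SE) without the libraries that stand apart. In limma's fit 0 of 6 members passed an adjusted p of 0.05 and 0% of genes did. Id3 was again the only member with an unadjusted p under 0.05, reached by 12% of genes. Its adjusted p in limma was 0.378, with 0.314 to 0.676 over the alternatives. The difference between the 2 contrasts, ibrutinib minus DMSO, was 0.45 ± 0.64 (SE). Xist was high in all 3 Eμ-TCL1 libraries in ibrutinib and in only 1 of the 4 with mutant p53, where Id3 was at 12.8. The part of sex in the ibrutinib contrasts of the members was not tested.

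**Figure D2:**
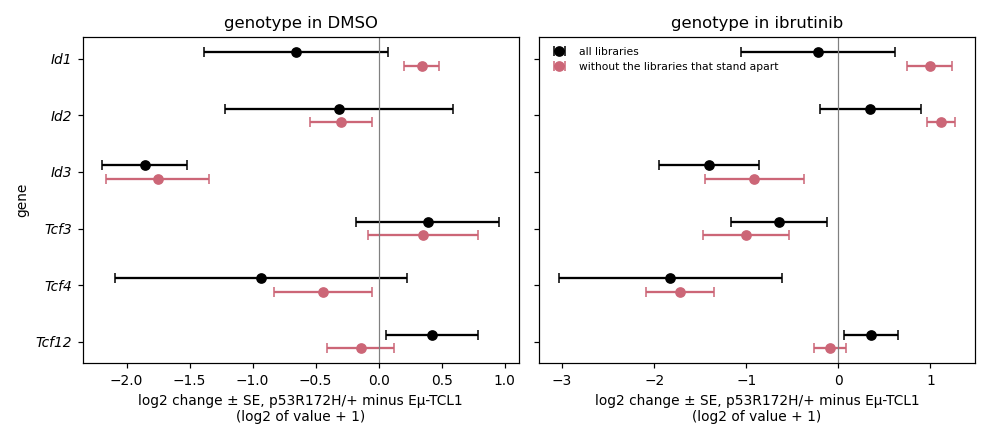
Difference between genotypes, p53R172H/+ minus Eμ-TCL1, on the log2(value + 1) scale with its standard error, in DMSO and in ibrutinib, for all libraries (black) and without the 5 that stand apart (red). Id3 was below 0 in both treatments, and Id1, Id2 and Tcf4 lay at 0.99, 1.11 and -1.72 in ibrutinib without the 5 libraries.

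Id2, which restrains E proteins in natural killer and innate lymphoid cells, did not differ between genotypes beyond its wide spread within them. In DMSO it was 108.4, 12 and 15.9 in Eμ-TCL1 replicates 2, 3 and 4, and 58.4, 63.9, 11.7, 12.7 and 9 in Eμ-TCL1;p53R172H/+ replicates 1 to 5. The high values were those of the myeloid and erythroid library and of the pair with high T-cell markers, and the other 5 libraries lay between 9 and 15.9. In ibrutinib it was 91.1, 18.3 and 16.9 in Eμ-TCL1 replicates 1, 3 and 4, and 39.7, 41.8, 41.7 and 34.7 in Eμ-TCL1;p53R172H/+ replicates 1, 3, 4 and 5. All 4 libraries with mutant p53 stood above the pair of Eμ-TCL1 replicates 3 and 4, and below replicate 1. Over all libraries the difference between genotypes was -0.32 ± 0.90 (SE) in DMSO and 0.35 ± 0.55 (SE) in ibrutinib. Without the libraries that stand apart it was -0.30 ± 0.25 (SE) in DMSO and 1.11 ± 0.16 (SE) in ibrutinib, where the adjusted p in limma was 0.0856.

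Set side by side, Id2 in the other libraries with mutant p53 ran from 9 to 12.7 in DMSO and from 34.7 to 41.8 in ibrutinib, a ratio of means of 3.54. In Eμ-TCL1 replicates 3 and 4 it ran from 12 to 15.9 in DMSO and from 16.9 to 18.3 in ibrutinib, a ratio of 1.26. The 2 tables were scaled separately, so these ratios carry no test. In these libraries with mutant p53, every marker sum but that of plasma cells lay in separate ranges in DMSO and in ibrutinib. Plasma cell markers were 111.4 to 342 in DMSO and 128.3 to 355.5 in ibrutinib. T-cell markers were 301.2 to 354.8 in DMSO and 786.8 to 1502.5 in ibrutinib, and natural killer cell markers 8.2 to 12.2 and 19.7 to 45.2. Of the natural killer list, Klrk1 (1.8 to 5 and 6.7 to 16.9) and Prf1 (3.1 to 4.1 and 10.9 to 24.6) were higher in ibrutinib. Both were highest in the 3 libraries with high T-cell markers. Gzma was lower in ibrutinib, at 1.2 to 2.1 and 0.7 to 1.1. Klrb1c (0.5 to 1.3 and 0.9 to 2.7) and Ncr1 (0.5 to 0.9 and 0.4 to 0.5) overlapped. Myeloid markers were 97.6 to 148 and 272.9 to 1198.9, erythroid markers 16.1 to 71 and 96.4 to 256.2, and B-cell markers 3822 to 4770.8 and 609.1 to 1695.2. Their part in the result was not tested. In the interaction of genotype and treatment, Id2 differed by 0.66 ± 1.17 (SE) over all libraries and by 1.42 ± 0.29 (SE) without the libraries that stand apart, with adjusted p-values in limma of 1 and 0.241.

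Id1, the member best known for its response to bone morphogenetic protein signals, was at 2.1 or lower, near the rounding step of 0.1, in all but 2 libraries. It was at 11.1 in Eμ-TCL1 replicate 2 in DMSO and at 13.2 in Eμ-TCL1 replicate 1 in ibrutinib, which are the libraries with high myeloid and erythroid markers. In Eμ-TCL1 replicates 3 and 4 it was at 0.2 and 0.1 in DMSO and at 0.3 and 0.2 in ibrutinib. With mutant p53 it was 1.1, 0.6, 0.7, 0.4 and 0.3 in replicates 1 to 5 in DMSO and 1.2, 0.9, 2.1 and 1.6 in replicates 1, 3, 4 and 5 in ibrutinib. The mean was therefore higher in Eμ-TCL1 in both treatments through 1 library in each. Over all libraries the difference was -0.66 ± 0.73 (SE) in DMSO and -0.22 ± 0.84 (SE) in ibrutinib. Without the libraries that stand apart it turned to 0.34 ± 0.14 (SE) and 0.99 ± 0.24 (SE).

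Among the E protein genes, Tcf4, which is abundant in B-cells and plasmacytoid dendritic cells, followed the B-cell markers. The gene (ENSMUSG00000053477) lies on the plus strand at chr18:69343356-69689079 in GRCm38. In DMSO its level was 81.7, 634.3 and 503.4 in Eμ-TCL1 replicates 2, 3 and 4, and 35, 34.5, 465.1, 575.6 and 268.3 in Eμ-TCL1;p53R172H/+ replicates 1 to 5. In ibrutinib it was 57.1, 413.6 and 365 in Eμ-TCL1 replicates 1, 3 and 4, and 6, 76.9, 176.4 and 118.7 in Eμ-TCL1;p53R172H/+ replicates 1, 3, 4 and 5. The 5 libraries that stand apart had values of at most 81.7, and of the others only Eμ-TCL1;p53R172H/+ replicate 3 in ibrutinib was as low. Its ratio to the summed B-cell markers stayed between 0.0702 and 0.133 in all 15 libraries. The difference between genotypes was -0.93 ± 1.16 (SE) in DMSO and -1.82 ± 1.21 (SE) in ibrutinib, with wide errors in both. In ibrutinib without the libraries that stand apart it was -1.72 ± 0.37 (SE), and the B-cell markers ran from 609.1 to 1695.2 with mutant p53 against 2883.6 and 3803.6 in Eμ-TCL1.

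**Figure D3:**
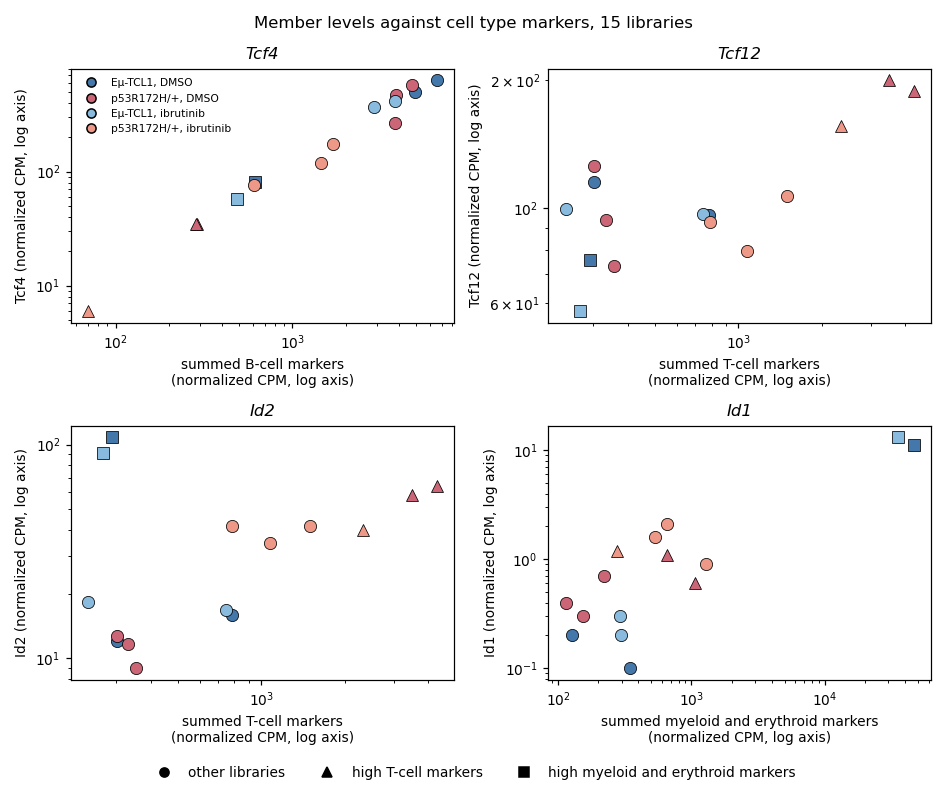
Levels of Tcf4, Tcf12, Id2 and Id1 (normalized CPM) against summed markers of B-cells, T-cells, T-cells, and myeloid with erythroid cells, for 15 libraries on log axes. Colors are groups, triangles and squares the libraries that stand apart. Tcf4, from 6 to 634.3, was higher where the B-cell markers were higher, and the 3 highest values of Tcf12, from 155.9 to 200.3, were those of the libraries with the most T-cell markers.

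Tcf12, needed with Tcf3 in thymocyte development, was the highest of the 3 E protein genes in the 3 libraries with high T-cell markers. In ibrutinib it was also the highest of them in Eμ-TCL1 replicate 1, by 57.4 against 57.1 for Tcf4, and in Eμ-TCL1;p53R172H/+ replicate 3. Per kilobase of the median coding transcript, at 4308 bases, it was again the highest in the libraries with high T-cell markers, but Tcf4 was higher in those replicates. All annotated exons of Tcf12 span 15529 bases, and its rank per kilobase depends on the length used. In DMSO it was 75.6, 115.4 and 96.3 in Eμ-TCL1 replicates 2, 3 and 4, and 200.3, 188.4, 93.9, 125.8 and 73.4 in Eμ-TCL1;p53R172H/+ replicates 1 to 5. In ibrutinib it was 57.4, 99.9 and 97.1 in Eμ-TCL1 replicates 1, 3 and 4, and 155.9, 106.9, 93.1 and 79.3 in Eμ-TCL1;p53R172H/+ replicates 1, 3, 4 and 5. The 3 libraries with high T-cell markers were the highest and the 2 with high myeloid and erythroid markers were among the lowest. The difference was 0.42 ± 0.36 (SE) in DMSO and 0.35 ± 0.30 (SE) in ibrutinib. Without the libraries that stand apart it was -0.14 ± 0.26 (SE) and -0.091 ± 0.17 (SE), and Tcf12 was then 73.4 to 125.8 over all 10 libraries.

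Tcf3, whose E2A products start the B-cell program, was 42.1, 153.9 and 114.7 in Eμ-TCL1 replicates 2, 3 and 4 in DMSO, and 70.1, 69.6, 186.9, 101.9 and 257.3 in Eμ-TCL1;p53R172H/+ replicates 1 to 5. In ibrutinib it was 47.3, 182.6 and 112.7 in Eμ-TCL1 replicates 1, 3 and 4, and 44.5, 43.6, 68.2 and 119.6 in Eμ-TCL1;p53R172H/+ replicates 1, 3, 4 and 5. It was low in all 5 libraries that stand apart, at 42.1 to 70.1, and also in Eμ-TCL1;p53R172H/+ replicates 3 and 4 in ibrutinib, and it overlapped between genotypes in both treatments. The difference was 0.39 ± 0.57 (SE) in DMSO and -0.64 ± 0.52 (SE) in ibrutinib. Over the other libraries with mutant p53 the mean was 182 ± 77.8 (SD, n = 3) in DMSO and 77.1 ± 38.8 (SD, n = 3) in ibrutinib, against 134 ± 27.7 (SD, n = 2) and 148 ± 49.4 (SD, n = 2) in Eμ-TCL1. The interaction was -1.03 ± 0.83 (SE), with an adjusted p of 1 in limma.

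The order of the 4 groups by mean was not the same for each gene, and neighbours in that order overlapped for all 6 members. Id3 had the order Eμ-TCL1 in DMSO, Eμ-TCL1 in ibrutinib, Eμ-TCL1;p53R172H/+ in ibrutinib and the same genotype in DMSO. Tcf4 was lowest in Eμ-TCL1;p53R172H/+ in ibrutinib, at a mean of 94.5 ± 71.7 (SD, n = 4), and highest in Eμ-TCL1 in DMSO, at 406 ± 289 (SD, n = 3). Without the libraries that stand apart, 2 of 6 members did not overlap between genotypes in DMSO (Id1 higher and Id3 lower with mutant p53), where 32.7% of all genes did not. In ibrutinib 3 of 6 did not (Id1 and Id2 higher, Tcf4 lower), against 34% of all genes.

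Compared per kilobase of the median coding transcript, Tcf4 was the highest of the 6 genes in 9 libraries, Id2 in 4 and Tcf12 in 2. That length was 2348.5 bases for Tcf4 and 4308 for Tcf12, while all their annotated exons span 27382 and 15529 bases. The order of the genes and the size of the ratios below therefore depend on the length used. The sum of the E protein genes over the sum of the Id genes, per kilobase, was 9.88 and 8.12 in Eμ-TCL1 replicates 3 and 4 in DMSO. In Eμ-TCL1;p53R172H/+ replicates 3, 4 and 5 in DMSO it was 17.0, 21.8 and 12.8, higher than in both. In ibrutinib it was 6.29 and 8.14 in Eμ-TCL1 replicates 3 and 4, but 1.86, 2.33 and 2.86 in Eμ-TCL1;p53R172H/+ replicates 3, 4 and 5, lower than in both. Without the libraries that stand apart, 32.7% of all genes did not overlap between genotypes in DMSO and 34% in ibrutinib. No such share was taken over ratios of other genes, and the contrast of Id3 was in view when the genes were chosen. Over all libraries the ratio overlapped between genotypes in both treatments. The 3 libraries with high T-cell markers had ratios of 1.5 to 1.55, and the 2 with high myeloid and erythroid markers had more Id than E protein transcript, at 0.540 and 0.496. The ratio is free of the scaling of the tables, since both sums come from 1 library. In the libraries that do not stand apart, B-cell markers were 4917.6 and 6536.2 in Eμ-TCL1 and 3822 to 4770.8 with mutant p53 in DMSO, and 2883.6 and 3803.6 against 609.1 to 1695.2 in ibrutinib. The part of cell makeup in the ratio was not tested.

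**Figure D4:**
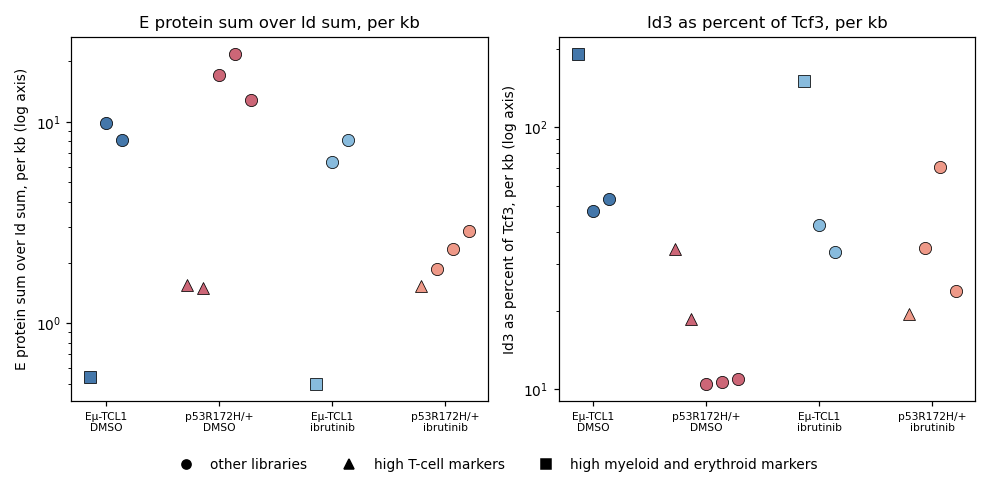
Left, sum of Tcf3, Tcf4 and Tcf12 over the sum of Id1, Id2 and Id3, per kilobase of median coding transcript; right, Id3 as a percent of Tcf3, per kilobase. Each point is 1 of 15 libraries, on log axes, with triangles and squares as the libraries that stand apart. Id3 was 10.5% to 11.0% of Tcf3 in Eμ-TCL1;p53R172H/+ replicates 3, 4 and 5 in DMSO.

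Id3 was set against Tcf3 in the same way, since E2A is a main partner of Id3 in B-cells. In Eμ-TCL1 in DMSO, Id3 was 191%, 47.8% and 53.3% of Tcf3 per kilobase in replicates 2, 3 and 4. With mutant p53 it was 34.2%, 18.5%, 10.5%, 10.7% and 11.0% in replicates 1 to 5. The genotypes did not overlap, as for Id3 alone, where 6.45% of all 16470 genes did not. This contrast of Id3 was in view when the genes were chosen, and no such share was taken over ratios of other genes. The 191% was that of the library with high myeloid and erythroid markers, and the part of cell makeup was not tested. In ibrutinib the ranges were 33.3% to 150% and 19.5% to 70.7%, and they overlapped.

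Of the genes outside the family, those most like each member were sought over 10119 genes, by the lower of the Pearson correlations of log2(value + 1) in the 8 DMSO and 7 ibrutinib libraries. The closest to Tcf4 was Ms4a1, which encodes the B-cell antigen CD20, with r = 0.992 in DMSO and 0.998 in ibrutinib, and 0.973 over the 10 libraries without those that stand apart, each table centred. It was followed by A530032D15Rik and Ralgps2. Tcf3 was closest to Eci1, Smarca4 and Ensa, where Smarca4 encodes the BRG1 ATPase of chromatin remodeling and had r = 0.987 and 0.963. Tcf12 was closest to Usp24, Trim12a and Nlrc5. Id2 was closest to Ctsd (cathepsin D), Rap2b and 8430419L09Rik, and Id1 to Rasa4, Rnf149 and Cmtm3. The correlation of Id2 and Ctsd fell from at least 0.949 in each table to 0.551 over the 10 libraries. Those of Id1 with Rasa4, Rnf149 and Cmtm3 fell from at least 0.977, 0.965 and 0.959 to 0.892, 0.777 and 0.822. In these 10 libraries Id1 was near the rounding step. Id3 was closest to Adrbk2 (r = 0.884 and 0.910), Mical3 and Nav2, and with Adrbk2 it had r = 0.826 over the 10 libraries. The libraries of a table share their scaling and differ in cell makeup, so these values describe the tables.

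Other genes of the pathway were counted by lists, of which no gene passed an adjusted p of 0.05 in any comparison by limma. Of 26 measured target genes of E proteins in DMSO, 8 were higher and 18 lower with mutant p53, where 7693 of 16470 genes were lower. The median log2 difference was -0.24 against 0.038 over all genes. By limma 1 had an unadjusted p under 0.05, which 8.17% of all genes reached. In ibrutinib 6 were higher and 19 lower, where 8937 of 16428 genes were lower. The median was -0.47 against -0.047 over all genes, and 1 had such a p, reached by 12% of all genes. The list holds 5 of the B-cell markers and 1 of the T-cell markers. In DMSO, Foxo1, a factor of early B-cells, had 118 ± 20.9 (SD, n = 5) with mutant p53 against 71.2 ± 22.6 (SD, n = 3), a log2 difference of 0.76 ± 0.27 (SE). Il7r, the interleukin-7 receptor, which T-cells also carry, was 90.6 ± 52.9 (SD, n = 3) and 440 ± 266 (SD, n = 4) in ibrutinib, a difference of 2.21 ± 0.63 (SE), where T-cell markers were also higher.

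Of 19 genes that act upstream of the Id genes, 1 reached an unadjusted p under 0.05 in DMSO, where 8.17% of all genes did (580 higher and 766 lower), and 3 in ibrutinib, where 12% did (934 higher and 1039 lower). The 4 calls were all higher with mutant p53. In DMSO this was Myc, at 56.2 ± 33.8 (SD, n = 3) and 176 ± 59.7 (SD, n = 5). In ibrutinib they were Smad7, an inhibitor of transforming growth factor signals, with a log2 difference of 1.27 ± 0.22 (SE), the factor Klf2 with 1.15 ± 0.26 (SE), and Smad4, the shared Smad of this pathway, with 0.59 ± 0.16 (SE). T-cell markers in ibrutinib were 786.8 to 2335.9 with mutant p53 and 238.1 to 744.6 in Eμ-TCL1. In DMSO all 3 genes were highest in the pair with high T-cell markers, Klf2 at 210.9 and 206.4, Smad7 at 98.9 and 73.6 and Smad4 at 128.7 and 103.2, and the part of these cells was not tested. The early growth response genes, which antigen receptors induce and which act on Id3, were looked at after their values were seen. Egr2 was at 241.5, 98.6 and 268.3 in Eμ-TCL1;p53R172H/+ replicates 3, 4 and 5 in DMSO, where Id3 was at 8.8, 4.9 and 12.7. In replicates 1 and 2 of that group Egr2 was at 6.7 and 9.5 and Id3 at 10.8 and 5.8. Egr2 was at 2.2, 13 and 6.8 in Eμ-TCL1 replicates 2, 3 and 4 in DMSO, where Id3 was at 27.5 to 36.2. In ibrutinib Egr2 was at most 2 in all 7 libraries, where Id3 was at 3.9 to 34.8. No relation between the pair was tested.

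Of 16 co-factors and genes of protein turnover, 3 reached an unadjusted p under 0.05 in each treatment, against 8.17% and 12% of all genes. In DMSO 1 was higher (Stub1) and 2 lower (Cdc20 and Skp2), and in ibrutinib 2 were higher (Gata3 and Stub1) and 1 lower (Cdc20), where Cdc20 and Skp2 were named after their values were seen. The genotypes did not overlap in DMSO for 1 gene of the 16, where 6.45% of all genes did not. This was Huwe1, a ubiquitin ligase, with a log2 difference of 0.49 ± 0.26 (SE) and an unadjusted p of 0.0915 in limma. In ibrutinib, Gata3, a T-cell factor, had 27.2 ± 13.1 (SD, n = 4) with mutant p53 against 5.9 ± 2.26 (SD, n = 3). T-cell markers were also higher there with mutant p53, and their part was not tested. Stub1, another ligase, differed by 0.47 ± 0.18 (SE) there. Of 19 other helix-loop-helix partners, 5 were measured, and 1 had an unadjusted p under 0.05 in each treatment. The fitted differences of all 5 were below 0 in both treatments, as were those of 7693 of 16470 genes in DMSO and 8937 of 16428 in ibrutinib. Tal2 and Atoh8 were at 1.4 or lower in every library, and Tal2 in DMSO was at 1.1 in Eμ-TCL1 replicate 2 but at 0.1 in replicates 3 and 4, against 0.1 to 0.4 with mutant p53. Bhlha15 (Mist1, a factor of plasma cells) differed by -1.83 ± 0.49 (SE) in DMSO and Lyl1, a factor of blood progenitors, by -2.44 ± 0.86 (SE) in ibrutinib. Lyl1 was at 0.5 to 3.4 in the 3 libraries with high T-cell markers and few B-cell markers. B-cell markers in ibrutinib were 70.2 to 1695.2 with mutant p53, and 486.4, 3803.6 and 2883.6 in Eμ-TCL1, and their part was not tested. Tal1, an erythroid factor, was at 38.5 and 28.8 in the 2 Eμ-TCL1 libraries with high erythroid markers and at 0.9 or lower in the other 13. Over the interaction of genotype and treatment, no gene of the lists had an unadjusted p under 0.05, against 0.523% of all genes.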

How the data were processed

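Spleen cells labelled as B-cells, with no sorting described, were cultured and sequenced by the authors, giving 15 libraries in 2 tables, 1 per treatment. The authors deposited signal, not counts: reads per gene after alignment with TopHat2 2.0.12 to GRCm38, SAMtools 0.1.19 and HTSeq, a filter on low genes, and edgeR scaling to an effective library size (CPM), set in each table and rounded to 0.1 (tools per the submitters' processing notes). Whole reads could not be recovered, so the depth is unknown and no count test was run. Columns were mapped to groups by their labels. In R 4.3.3, limma 3.58.1 (eBayes with trend) compared the genotypes of a table on log2(value + 1), with Benjamini-Hochberg adjustment over all 16470 genes in DMSO and 16428 in ibrutinib, and the interaction over 15869 genes in both. The script was tested on simulated data. Treatment within a genotype was not tested, since the tables were scaled separately.

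The members and gene lists were chosen with earlier results of these data known. Named genes were the members, the 3 genes most like each (mean of at least 5 in both tables), and up to 4 genes per list and contrast of lowest p among those whose genotypes do not overlap. The labels do not say that replicates are separate mice, so p-values measure the spread between these samples. Promoters were matched by symbol, and 4 of 6 members had a window that was read. Levels per kilobase used the median length of coding transcripts in GENCODE M21, while the authors counted on GENCODE M2. The alternatives were the pseudocount, a filter on low values, other scalings, sample weights, a replicate block and leaving out libraries. The comparison without the libraries that stand apart was chosen after seeing the data. Figures used matplotlib 3.10.9.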

Additional observations from a re-analysis of the deposited data

How the results depend on the processing

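Library depth cannot be read from these values, and Id1 is so near the rounding step that its log2 values depend on the pseudocount. Over all genes, 2 passed in DMSO, 6 with a pseudocount of 5, 14 with median of ratios scaling, 803 with sample quality weights, 1 without the samples of few B-cell transcripts, 12 without the libraries that stand apart, and 0 to 61 leaving out 1 library (61 when Eμ-TCL1 replicate 2 was dropped, 5 for Eμ-TCL1;p53R172H/+ replicate 4 and 0 for Eμ-TCL1 replicate 3). In ibrutinib 0 passed, 28 with weights and 0 to 24 leaving out 1 library (24 when Eμ-TCL1 replicate 1 was dropped, 5 for Eμ-TCL1;p53R172H/+ replicate 5). Weights gave 1 member call, Id3 in DMSO (-1.60, adjusted p = 0.0141 in limma), and 7 list calls in DMSO and 1 in ibrutinib. Members whose genotypes did not overlap went from 1 to 2 of 6 in DMSO and from 0 to 3 in ibrutinib without the libraries that stand apart. The share over all genes went from 6.45% to 32.7% in DMSO and from 12.7% to 34% in ibrutinib. Leaving out 1 library, the members ran over 1 to 2 and 0 to 3, and no such share is given for these runs. Id3 was lower with mutant p53 in both treatments under every alternative run, at -2.0 to -1.70 in DMSO and -1.78 to -1.04 in ibrutinib leaving out 1 library, and reached -0.52 in ibrutinib without the libraries that stand apart and Eμ-TCL1;p53R172H/+ replicate 3.

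Other members changed direction. Id1 in DMSO was 0.38 with weights, 0.34 without the libraries that stand apart and -1.25 to 0.48 leaving out 1 library. Id1 in ibrutinib was 0.35 with a pseudocount of 0.1, 0.70 with weights, 0.99 without the libraries that stand apart, 1.18 also without replicate 3, and -0.83 to 0.95 leaving out 1 library. Leaving out 1 library moved Id2 from -0.89 to 0.65 in DMSO and from -0.063 to 1.12 in ibrutinib, and Tcf3 in DMSO from -0.16 to 0.77. Tcf4 in DMSO was 0.48 without the samples of few B-cell transcripts. Without the libraries that stand apart Tcf12 was -0.14 in DMSO and -0.091 in ibrutinib, and -0.19 there also without replicate 3. In the interaction, leaving out 1 library moved Id1 from -0.70 to 1.60, Id2 from -0.30 to 1.43, Tcf4 from -1.81 to 0.13 and Tcf12 from -0.33 to 0.094, and Tcf12 was 0.17 with quantile scaling, 0.026 with median of ratios, 0.039 with weights, 0.15 without the samples of few B-cell transcripts and 0.052 without the libraries that stand apart. The cause was not tested.

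With the replicate number as a block, 0 genes passed in DMSO and 0 in ibrutinib, and no member. Deviations from group means correlated at -0.167 to 0.247 between genotypes of a table. Between treatments, libraries of the same number correlated at 0.715 to 0.837 in 5 of 6 pairs, each correlating best with its own number, and at -0.104 for Eμ-TCL1;p53R172H/+ replicate 3. Since that pair did not correlate, the numbers were not taken to pair samples. With genotype and number as a block, no gene passed in the interaction (0 of all tested). Id2 was then 0.84 ± 0.70 (SE), Tcf3 -1.21 ± 0.44 (SE) and Tcf4 -1.41 ± 0.41 (SE), and the 6 members had adjusted p-values of 0.871 to 0.988 in limma, adjusted over all genes.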
